A study of Homo sapiens with 6 samples.

Results

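The 47 genes described here encode the machinery that copies chromosomal DNA, from the proteins that mark and license replication origins to the helicase, the polymerases, the sliding clamp, the enzymes that make deoxynucleotides and the factor that reassembles chromatin behind the fork. They were chosen by name for their function, with earlier results of these data known, and all 47 were found among the 11048 gene symbols listed in each of 6 libraries. The libraries were prepared from MM1.S cells, a human multiple myeloma line, that had been exposed for 6 h to DMSO as vehicle or to CCF642 or CCF642-34, each at 3 µM, and each group had 2 libraries. CCF642 is an inhibitor of protein disulfide isomerases, the enzymes that form disulfide bonds in the endoplasmic reticulum, and CCF642-34 is an analogue made for greater selectivity for one of them, PDIA1. One line stands for the disease here, and nothing in the labels says whether the libraries of a group came from separate cultures, so p values measure the spread between libraries. For each gene, that spread was taken mostly from other genes of similar level (3 residual and 42.9 prior degrees of freedom).

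Replication origins are bound by the origin recognition complex (ORC), on which CDC6 and CDT1 load the MCM2-7 helicase during G1 phase, a step called licensing that geminin (GMNN) blocks once S phase has begun. In S phase, CDC45 and the GINS complex join MCM2-7 to form the active helicase (CMG), polymerase α with its primase starts each strand, and polymerases δ and ε extend it on the ring-shaped clamp PCNA, which replication factor C (RFC) loads. Many of these genes are transcribed in late G1 and S phase under control of E2F factors, so their mRNA is a common reading of how many cells in a culture are cycling. In RNA from a whole culture, fewer cells in S phase and less mRNA per cell cannot be told apart.

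The authors deposited CPM values, which are read counts divided by the total of the library and multiplied by a constant, and between 20567313 and 28459677 reads per library could be recovered from them. The replication genes were measured with 93 to 19802 reads each in a library. The genes of the plasma cell list (9 of 11 listed) had a summed level of 9322 to 9384 CPM with DMSO, 6585 to 6628 CPM with CCF642 and 7382 to 7416 CPM with CCF642-34. Its genes moved in both directions, JCHAIN going from 4316 to 4321 CPM with DMSO to 1792 to 1875 with CCF642 and 2339 to 2357 with CCF642-34, and IRF4 from 657 to 682 CPM to 1127 to 1147 and 1355 to 1358. Of 14 markers of other blood and marrow cells, 10 were not listed, and the 4 others (CD3E, HBB, COL1A1 and PECAM1) summed to 8.83 to 9.67 CPM with DMSO, 17.1 to 17.2 CPM with CCF642 and 12.3 to 12.7 CPM with CCF642-34. Of that sum, COL1A1 made up 1.09 and 1.495 CPM with DMSO, 8.99 and 10.5 CPM with CCF642 and 2.74 and 3.53 CPM with CCF642-34, and the 3 others together 7.74 and 8.18, 8.22 and 6.59, and 9.56 and 9.21 CPM in the same order. The part of either list in the results below was not tested. Fold changes below are on a log2 scale. They were fitted with limma on CPM after TMM scaling (edgeR's trimmed mean of M-values) and a pseudocount of 1. The CPM printed beside them are not TMM-scaled. This scaling moved changes against DMSO upward with both compounds, by an amount that is not slight for genes with small changes. Scaled by library size alone, MCM6 changed by 0.12 under CCF642 in place of 0.25, and CHAF1A by −0.25 in place of −0.12. Under CCF642-34, CDT1 changed by 0.06 in place of 0.15. Genes were called at a Benjamini-Hochberg adjusted p under 0.05 over all 11048 genes. The printed CPM of treated libraries could lie wholly below DMSO for genes not called, as for ORC2, CDC45, POLD1 and RPA2. A statement below that libraries did not overlap is therefore no sign of a change by itself. The share of all genes without such overlap was not computed.

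To see whether inhibitor treatment moved the replication genes as a block, each of them was compared with DMSO. With CCF642-34, 29 of the 47 genes (61.7%) were lower, where 27.9% of all genes tested were lower, and 8 (17%) were higher, where 29.7% of all genes were higher. With CCF642, 29 genes (61.7%) were again lower, beside 31.3% of all genes, and 7 (14.9%) were higher, beside 31.8% of all genes. The median log2 fold change of the 47 genes was −0.30 with CCF642-34 and −0.29 with CCF642, and over all genes it was 0.0067 and −0.0066. These changes were mostly small. Only 10 of the 47 genes fell by at least 1.5-fold with CCF642-34 (21.3%, beside 7.19% of all genes) and 8 with CCF642 (17%, beside 9.22%), and none rose by that much with either compound, where 8.14% and 11.5% of all genes did. By the criterion of the study, a 2-fold change with an unadjusted p under 0.05, PCNA with CCF642-34 was called lower (2.13% of the 47 genes, beside 1.29% of all genes), and with CCF642 no replication gene was, beside 1.99% of all genes. None was called higher by it, beside 2.59% of all genes with CCF642-34 and 4.5% with CCF642. The 2 comparisons share their DMSO libraries, and in them 26 of the 47 genes (55.3%) were lower with both compounds, beside 22% of all genes, 7 (14.9%: ORC1, ORC3, ORC4, CDC6, CDT1, MCM6 and RFC1) were higher with both, beside 24.3%, and 0 were called in opposite directions, beside 0.896%. When the libraries were scaled by their size alone, which puts the all-gene median at −0.13 for CCF642 and at −0.078 for CCF642-34, ORC4 was no longer called higher with either compound, and ORC5, CDT1 and MCM6 were no longer called higher with CCF642-34. In the same setting, calls were gained for genes that are described below as not called, namely ORC2, PRIM1, POLD1 and RPA2 lower with CCF642-34 and CDC45, GINS4, POLA1, POLD1, RFC5 and RPA2 lower with CCF642, the lowest limma adjusted p being that of RPA2 with CCF642 (0.000301, log2 change −0.26).

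**Figure D1:**
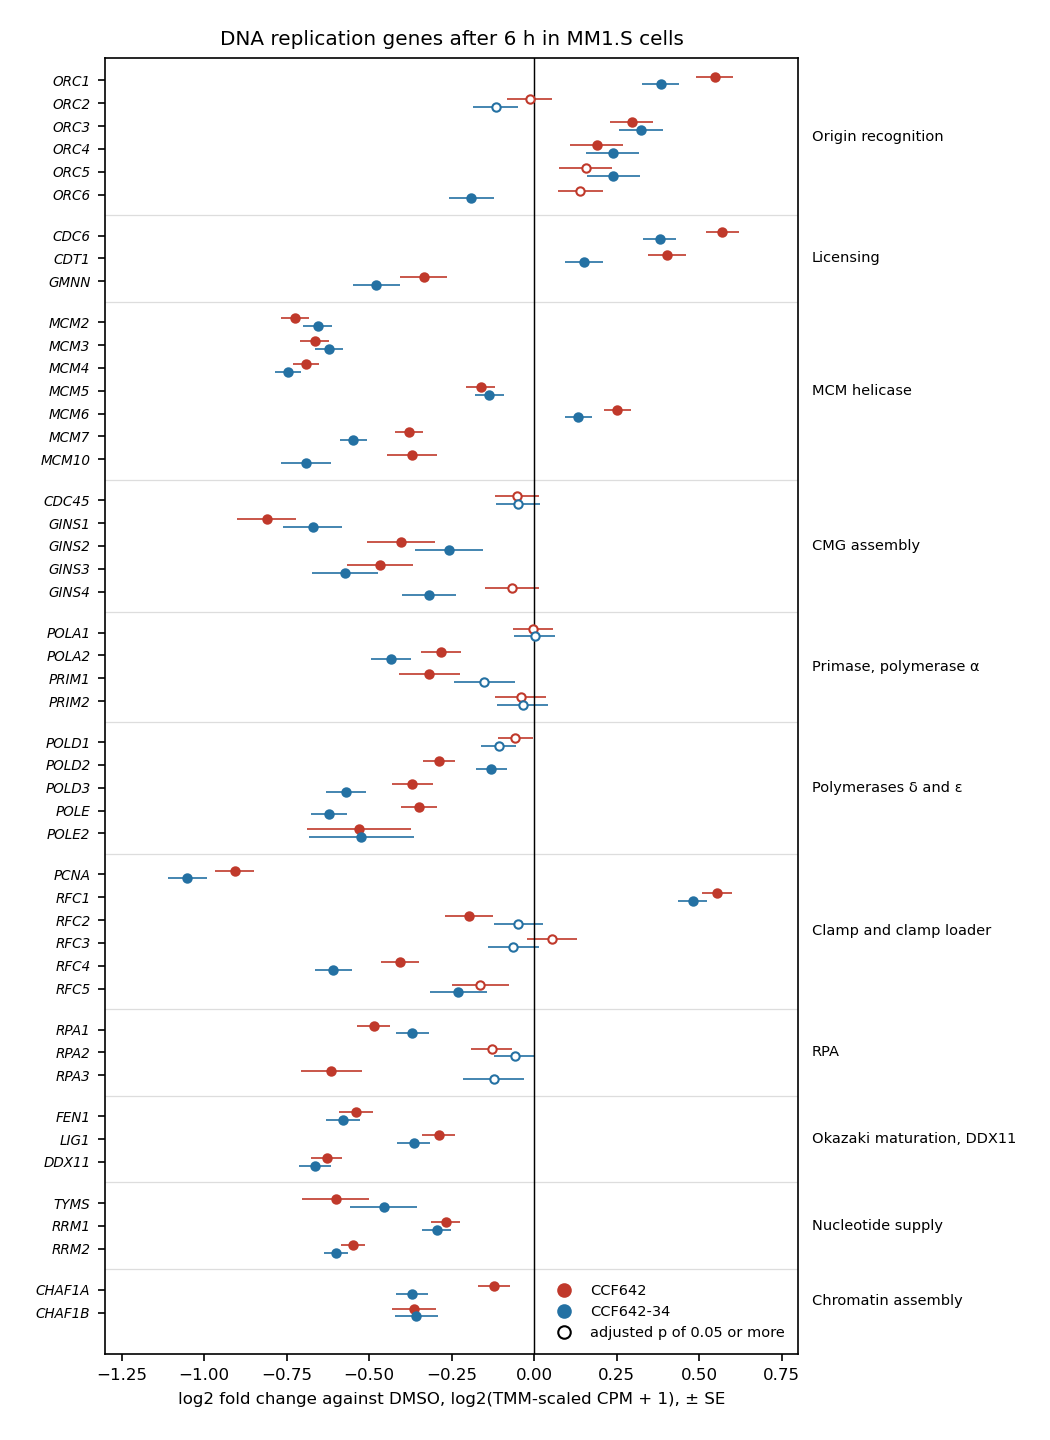
Log2 fold changes of the 47 replication genes against DMSO, grouped by role, with CCF642 in red and CCF642-34 in blue. Points are limma estimates from 2 libraries per group, bars are standard errors, and open points have an adjusted p of 0.05 or more. Most points lie left of 0 and PCNA lies farthest left. ORC1, ORC3, ORC4, ORC5, CDC6, CDT1, MCM6 and RFC1 lie to the right with both compounds, ORC5 with CCF642 as an open point. When libraries are scaled by size alone, the calls of ORC4 with both compounds and of ORC5, CDT1 and MCM6 with CCF642-34 are lost.

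Because genes of one complex moved in opposite directions, the promoters of 7 of them are shown, those of 4 MCM subunits, PCNA, RFC1 and CDC6. MCM2 (chr3:127598161-127598440, forward strand), MCM3 (chr6:52284713-52284992, reverse strand), MCM7 (chr7:100101368-100101647, reverse strand) and PCNA (chr20:5126593-5126872, reverse strand) were lower with both compounds. MCM6 (chr2:135876414-135876693, reverse strand), RFC1 (chr4:39366333-39366612, reverse strand) and CDC6 (chr17:40287629-40287908, forward strand) were higher with both. The sequences are from RefSeq on GRCh38.p14, each of 280 bases with 30 of them after the transcription start, read along the strand of the gene. Capitals mark the E2F letters (TTTCCCGC, TTTCGCGC, TTTGCCGC or TTTGGCGC) and the CCAAT box letters (CCAAT), each on either strand, and in MCM7 one of each overlap.
MCM2: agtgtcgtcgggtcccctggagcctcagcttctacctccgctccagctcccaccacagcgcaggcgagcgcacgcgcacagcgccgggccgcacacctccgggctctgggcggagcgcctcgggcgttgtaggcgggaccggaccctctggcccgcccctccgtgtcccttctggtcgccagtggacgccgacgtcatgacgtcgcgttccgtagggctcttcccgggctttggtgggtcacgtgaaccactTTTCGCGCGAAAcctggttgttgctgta
MCM3: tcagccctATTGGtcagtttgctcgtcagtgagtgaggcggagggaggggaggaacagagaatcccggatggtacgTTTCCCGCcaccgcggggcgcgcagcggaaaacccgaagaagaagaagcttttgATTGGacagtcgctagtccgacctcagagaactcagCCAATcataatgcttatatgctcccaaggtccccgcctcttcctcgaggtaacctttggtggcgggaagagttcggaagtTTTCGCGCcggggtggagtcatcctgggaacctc
MCM7: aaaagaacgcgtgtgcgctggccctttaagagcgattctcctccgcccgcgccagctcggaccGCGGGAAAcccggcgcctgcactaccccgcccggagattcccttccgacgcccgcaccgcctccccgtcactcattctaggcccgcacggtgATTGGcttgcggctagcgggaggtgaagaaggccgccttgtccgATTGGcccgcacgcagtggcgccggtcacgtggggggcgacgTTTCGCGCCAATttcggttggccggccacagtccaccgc
PCNA: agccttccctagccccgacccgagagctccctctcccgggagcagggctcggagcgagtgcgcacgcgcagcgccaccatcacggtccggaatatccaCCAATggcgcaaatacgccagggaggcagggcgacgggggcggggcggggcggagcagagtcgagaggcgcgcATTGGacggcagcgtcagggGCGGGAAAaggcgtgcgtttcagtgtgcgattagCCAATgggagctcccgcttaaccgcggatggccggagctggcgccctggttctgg
MCM6: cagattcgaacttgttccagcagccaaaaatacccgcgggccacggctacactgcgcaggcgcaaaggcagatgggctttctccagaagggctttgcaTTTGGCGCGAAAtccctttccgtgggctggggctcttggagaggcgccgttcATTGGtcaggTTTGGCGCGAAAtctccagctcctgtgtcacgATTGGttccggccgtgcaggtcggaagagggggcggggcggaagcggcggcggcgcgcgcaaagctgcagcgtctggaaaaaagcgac
RFC1: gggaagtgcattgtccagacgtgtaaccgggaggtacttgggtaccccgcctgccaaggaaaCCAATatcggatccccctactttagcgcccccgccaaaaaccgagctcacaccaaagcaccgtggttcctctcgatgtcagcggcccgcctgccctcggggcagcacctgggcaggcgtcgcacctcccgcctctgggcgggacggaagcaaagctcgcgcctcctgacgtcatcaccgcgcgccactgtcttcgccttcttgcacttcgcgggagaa
CDC6: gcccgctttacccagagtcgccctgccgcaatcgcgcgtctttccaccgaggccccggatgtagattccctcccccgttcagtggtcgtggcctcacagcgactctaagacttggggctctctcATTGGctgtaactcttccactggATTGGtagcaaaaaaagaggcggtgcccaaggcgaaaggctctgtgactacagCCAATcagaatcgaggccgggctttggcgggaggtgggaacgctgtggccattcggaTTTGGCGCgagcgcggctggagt
MCM6 held 4 matches to the E2F letters, in 2 overlapping pairs on opposite strands, MCM2 held 1 such pair, MCM3 and MCM7 held 2 separate matches each, PCNA and CDC6 held 1 each, and RFC1 held none. Over windows of 300 bases, 250 before and 50 after the start, promoters of 41 of the 47 genes were matched by symbol, and 18 of them (43.9%) held the E2F letters, against 3.33% of all 27305 promoters and 5.59% of the 8871 promoters of listed genes. The letters were in 12 of 23 promoters of genes lower with both compounds (52.2%), in 4 of 7 promoters of genes higher with both (57.1%: ORC3, CDC6, CDT1 and MCM6) and in 2 of the 11 others (18.2%: POLA1 and RFC3). The CCAAT letters were in 23 of the 41 promoters (56.1%), against 35.7% of all promoters. A match describes these letters and is not a measured binding site.

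The origin recognition and licensing genes held most of the increases. Of the 6 ORC subunits, 3 rose with CCF642 and 4 with CCF642-34, of which ORC4 with either compound and ORC5 with CCF642-34 were not called when libraries were scaled by size alone. In that setting only ORC1 and ORC3 of the ORC genes stayed higher. With TMM scaling, 31.8% of all genes were higher with CCF642 and 29.7% with CCF642-34, and 31.3% and 27.9% were lower. These shares of all genes also stand beside the counts of each role below. ORC1, the largest ORC subunit and an ATPase, had 81.7 and 74.5 CPM in the DMSO libraries, 104 and 105 CPM with CCF642 and 93.7 and 98.2 CPM with CCF642-34. Every treated library lay above both DMSO libraries, and the CCF642 libraries lay above those of CCF642-34. Its log2 change was 0.55 under CCF642 (SE 0.057, limma adjusted p = 8.9e-12) and 0.38 under CCF642-34 (SE 0.057, adjusted p = 1.05e-07). ORC3, which forms part of the ORC core, had 52.2 and 49.5 CPM in the DMSO libraries, 55.3 and 58.9 CPM with CCF642 and 59.2 and 60.8 CPM with CCF642-34, again with no overlap between treated and DMSO libraries. The fitted log2 change was 0.30 under CCF642 (SE 0.066, limma adjusted p = 0.000126) and 0.32 under CCF642-34 (SE 0.066, adjusted p = 4.04e-05). ORC4 was higher by smaller log2 fold changes (0.19 under CCF642 and 0.24 under CCF642-34). Of the 50-base stretches of its longest coding transcript, 10.97% also occur in other genes, so its level is less certain. The ORC4 call was also lost with CCF642 without either DMSO library or the second CCF642 library and with DESeq2, and those of ORC4 and ORC5 with CCF642-34 without the second library of DMSO or of CCF642-34. ORC5 was called with CCF642-34 only (0.16 under CCF642 and 0.24 under CCF642-34), and ORC2 was called with neither (−0.01 under CCF642 and −0.12 under CCF642-34). ORC6, the smallest subunit, had 53.5 and 52.05 CPM in the DMSO libraries, 54.8 and 51.5 CPM with CCF642 and 44.4 and 42.3 CPM with CCF642-34. It fell with CCF642-34 (log2 fold change −0.19, SE 0.069, limma adjusted p = 0.0163) but was not called with CCF642 (0.14, adjusted p = 0.0712), whose CPM overlapped those of DMSO. The fall with CCF642-34 was not called without either DMSO library or without the second CCF642-34 library. Without the second CCF642 library, ORC6 was called higher with CCF642 while its lower call with CCF642-34 was kept, so the 2 calls were then opposite.

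Both loaders of the MCM helicase were called higher, and geminin, the inhibitor of CDT1, was called lower. CDC6, an ATPase that binds ORC, had 105 and 102 CPM in the DMSO libraries, 143 and 138 CPM with CCF642 and 125 and 129 CPM with CCF642-34. The 3 groups did not overlap, with CCF642 highest and DMSO lowest. Against DMSO it changed by 0.57 under CCF642 (SE 0.051, limma adjusted p = 8.38e-14) and 0.38 under CCF642-34 (SE 0.051, adjusted p = 1e-08). CDT1, which delivers MCM2-7 to the origin, had 77.9 and 78.3 CPM in the DMSO libraries, 92.2 and 96.7 CPM with CCF642 and 84.4 and 78.96 CPM with CCF642-34. On the log2 scale it changed by 0.40 under CCF642 (SE 0.058, limma adjusted p = 3.97e-08) and 0.15 under CCF642-34 (SE 0.058, adjusted p = 0.0209), the second of which was lost without either DMSO library, without the first CCF642-34 library, with DESeq2 and with scaling by library size. Geminin (GMNN), which binds CDT1 and prevents relicensing, had 60.7 and 55.6 CPM in the DMSO libraries, 41.9 and 41.7 CPM with CCF642 and 37.7 and 40.1 CPM with CCF642-34. Treated and DMSO libraries did not overlap, and it changed on the log2 scale by −0.33 under CCF642 (SE 0.071, limma adjusted p = 7.11e-05) and −0.48 under CCF642-34 (SE 0.071, adjusted p = 1.45e-07). The ratio of CDT1 to GMNN reads, which no scaling of the libraries affects, was 1.28 and 1.41 in the DMSO libraries, 2.20 and 2.32 with CCF642 and 2.24 and 1.97 with CCF642-34.

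Of the 7 MCM genes, 6 fell with both compounds. MCM4, a core subunit of the ring, had 577 and 572 CPM in the DMSO libraries, 320.4 and 328 CPM with CCF642 and 323 and 320.0 CPM with CCF642-34. The treated libraries lay far below DMSO and the 2 compounds overlapped. The fit gave log2 changes of −0.69 under CCF642 (SE 0.039, limma adjusted p = 1.49e-20) and −0.75 under CCF642-34 (SE 0.039, adjusted p = 1.25e-21). MCM2, which also binds histones, had 372 and 365 CPM in the DMSO libraries, 202 and 204 CPM with CCF642 and 221 and 218 CPM with CCF642-34, likewise with no overlap between treated and DMSO libraries. Its log2 change was −0.72 under CCF642 (SE 0.043, limma adjusted p = 4.5e-20) and −0.66 under CCF642-34 (SE 0.043, adjusted p = 2.69e-18), and 23.6% of its exonic bases overlap another annotated gene, mostly one on the opposite strand, which matters because the sources used here do not state whether counting used strand. The log2 changes of the 3 other falling subunits of the ring were −0.66 under CCF642 and −0.62 under CCF642-34 for MCM3, −0.38 under CCF642 and −0.55 under CCF642-34 for MCM7 and −0.16 under CCF642 and −0.14 under CCF642-34 for MCM5, whose calls were lost without the second DMSO library and, with CCF642-34, without its second library. MCM6 was the exception. It had 285 and 283 CPM in the DMSO libraries, 303 and 314 CPM with CCF642 and 296 and 289.6 CPM with CCF642-34, every treated library being above both DMSO libraries. The fitted log2 change was 0.25 under CCF642 (SE 0.042, limma adjusted p = 8.56e-07) and 0.13 under CCF642-34 (SE 0.042, adjusted p = 0.00513), and with CCF642-34 the call was lost on scaling by library size, without the second DMSO library and without the first CCF642-34 library. MCM10, a separate protein that joins the helicase at firing and at the fork, had 64.6 and 54.8 CPM in the DMSO libraries, 41.2 and 42.3 CPM with CCF642 and 32.96 and 35.6 CPM with CCF642-34. It fell with both compounds, and all treated libraries lay under DMSO, those with CCF642-34 lowest. Against DMSO it changed by −0.37 under CCF642 (SE 0.076, limma adjusted p = 3.72e-05) and −0.69 under CCF642-34 (SE 0.076, adjusted p = 6.52e-11).

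The genes that complete the active helicase fell or were not called. GINS1, a subunit of the 4-protein GINS complex, had 36.1 and 38.2 CPM in the DMSO libraries, 18.96 and 18.8 CPM with CCF642 and 20.8 and 22.3 CPM with CCF642-34, with every treated library far below both DMSO libraries. On the log2 scale it changed by −0.81 under CCF642 (SE 0.090, limma adjusted p = 6.47e-11) and −0.67 under CCF642-34 (SE 0.090, adjusted p = 1.18e-08), the largest fall with CCF642 after PCNA. GINS2 (−0.40 under CCF642 and −0.26 under CCF642-34) and GINS3 (−0.47 under CCF642 and −0.57 under CCF642-34) were called lower with both compounds, the GINS2 call with CCF642-34 being lost without any 1 of the DMSO or CCF642-34 libraries and with DESeq2. GINS4 had 36.2 and 39.1 CPM in the DMSO libraries, 31.3 and 34.2 CPM with CCF642 and 28.9 and 27.5 CPM with CCF642-34. The log2 change under CCF642-34 came to −0.32 (SE 0.082, limma adjusted p = 0.000904), and it was not called with CCF642 (−0.07, adjusted p = 0.496). Other annotated genes overlap 23.6% of the exonic bases of GINS4. CDC45, the remaining component, was not called (−0.05 under CCF642 and −0.05 under CCF642-34).

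Of the 4 genes for polymerase α and its primase, POLA2 was lower with both compounds and PRIM1 with CCF642. POLA1, the catalytic subunit of polymerase α, and PRIM2, the large primase subunit, were called with neither compound, with log2 changes of −0.00 under CCF642 and 0.00 under CCF642-34 for POLA1 and −0.04 under CCF642 and −0.03 under CCF642-34 for PRIM2. Of the 50-base stretches of the longest coding transcript of PRIM2, 31.3% also occur in other genes. POLA2, the second polymerase α subunit, had 84.99 and 84.7 CPM in the DMSO libraries, 62.96 and 63.8 CPM with CCF642 and 57.1 and 60.5 CPM with CCF642-34. Treated libraries lay below DMSO without overlap, and it changed on the log2 scale by −0.28 under CCF642 (SE 0.061, limma adjusted p = 7.54e-05) and −0.43 under CCF642-34 (SE 0.061, adjusted p = 3.4e-08). PRIM1, the catalytic primase subunit, had 29.1 and 32.3 CPM in the DMSO libraries, 20.9 and 23.7 CPM with CCF642 and 24.8 and 26.9 CPM with CCF642-34. It was called with CCF642 (−0.32, SE 0.091, limma adjusted p = 0.00238) and not with CCF642-34 (−0.15, adjusted p = 0.158), and without the second DMSO library the first call was lost. POLA2 and PRIM1 share 35.1% and 21.6% of their exonic bases with other annotated genes.

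Of the 5 genes for polymerases δ and ε, 4 were lower with both compounds. POLE, the catalytic subunit of polymerase ε, which extends the leading strand, had 121 and 125 CPM in the DMSO libraries, 87.2 and 88.1 CPM with CCF642 and 74.5 and 74.8 CPM with CCF642-34. The 3 groups did not overlap, and CCF642-34 was lowest. The fit gave log2 changes of −0.35 under CCF642 (SE 0.055, limma adjusted p = 2.99e-07) and −0.62 under CCF642-34 (SE 0.055, adjusted p = 8.61e-14). POLE2, its second subunit, was the gene with the fewest reads and had 6.48 and 8.22 CPM in the DMSO libraries, 4.52 and 4.12 CPM with CCF642 and 4.25 and 4.71 CPM with CCF642-34. Its log2 change was −0.53 under CCF642 (SE 0.16, limma adjusted p = 0.00331) and −0.52 under CCF642-34 (SE 0.16, adjusted p = 0.00423), and both calls were lost without the second DMSO library. POLD3 (−0.37 under CCF642 and −0.57 under CCF642-34) and POLD2 (−0.29 under CCF642 and −0.13 under CCF642-34), accessory subunits of polymerase δ, also fell (POLD2 with CCF642-34 was not called without either DMSO library or the second CCF642-34 library), while POLD1, its catalytic subunit, was not called (−0.06 under CCF642 and −0.11 under CCF642-34). With CCF642-34, POLD1 was called lower in the fit of only the 2 groups compared. The same held without either CCF642 library or without the first CCF642-34 library.

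PCNA, the sliding clamp that tethers the polymerases, fell most of the 47 genes with both compounds. It had 128 and 128 CPM in the DMSO libraries, 64.4 and 59 CPM with CCF642 and 57.5 and 57.4 CPM with CCF642-34. All treated libraries lay far below DMSO, and it changed on the log2 scale by −0.91 under CCF642 (SE 0.059, limma adjusted p = 2e-18) and −1.05 under CCF642-34 (SE 0.059, adjusted p = 1.34e-20). The loader of this clamp moved in parts. RFC1, the large subunit of replication factor C, had 213 and 208 CPM in the DMSO libraries, 277 and 288 CPM with CCF642 and 266 and 288 CPM with CCF642-34, with all treated libraries above DMSO. The fitted log2 change was 0.55 under CCF642 (SE 0.044, limma adjusted p = 3e-15) and 0.48 under CCF642-34 (SE 0.044, adjusted p = 4.44e-13), the largest increase with CCF642-34 and, after CDC6, with CCF642. RFC4 fell (−0.41 under CCF642 and −0.61 under CCF642-34), RFC2 fell with CCF642 (−0.20 under CCF642 and −0.05 under CCF642-34), RFC5 fell with CCF642-34 (−0.16 under CCF642 and −0.23 under CCF642-34), and RFC3 was not called (0.05 under CCF642 and −0.06 under CCF642-34). The RFC2 call was lost with DESeq2 and without the first DMSO or the first CCF642 library, and that of RFC5 without either DMSO library or the first CCF642-34 library. The ratio of RFC1 to PCNA reads was 1.67 and 1.63 in the DMSO libraries, 4.30 and 4.88 with CCF642 and 4.62 and 5.01 with CCF642-34.

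Replication protein A coats single-stranded DNA as a complex of 3 subunits. RPA1, the large DNA-binding subunit, had 163 and 164 CPM in the DMSO libraries, 107 and 105 CPM with CCF642 and 121 and 116 CPM with CCF642-34. It fell with both compounds, without overlap with DMSO, and it changed on the log2 scale by −0.49 under CCF642 (SE 0.050, limma adjusted p = 8.45e-12) and −0.37 under CCF642-34 (SE 0.050, adjusted p = 1.78e-08). RPA3, the smallest subunit, had 29.97 and 29.8 CPM in the DMSO libraries, 17.8 and 17.1 CPM with CCF642 and 24 and 27.6 CPM with CCF642-34. The CCF642 libraries lay well below all others, and the fall was called with CCF642 (−0.61, SE 0.092, limma adjusted p = 1.34e-07) and not with CCF642-34 (−0.12, adjusted p = 0.267). RPA2 was not called (−0.13 under CCF642 and −0.06 under CCF642-34).

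The genes that finish Okazaki fragments, the short pieces of the lagging strand, fell with both compounds. FEN1, the flap endonuclease, changed by −0.54 under CCF642 and −0.58 under CCF642-34, and LIG1, the ligase that seals the fragments, by −0.29 under CCF642 and −0.36 under CCF642-34. DDX11, a helicase that acts at the fork and in sister chromatid cohesion, had 229.6 and 229.6 CPM in the DMSO libraries, 140.3 and 129.8 CPM with CCF642 and 136 and 136 CPM with CCF642-34. Treated and DMSO libraries did not overlap, and it changed on the log2 scale by −0.63 under CCF642 (SE 0.048, limma adjusted p = 5.42e-16) and −0.66 under CCF642-34 (SE 0.048, adjusted p = 1.25e-16). Its level is uncertain, since 42.4% of the 50-base stretches of its longest coding transcript also occur in other annotated genes.

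All 3 genes of deoxynucleotide supply fell with both compounds. RRM2, the small subunit of ribonucleotide reductase, had 861 and 837 CPM in the DMSO libraries, 525 and 533 CPM with CCF642 and 522 and 529.9 CPM with CCF642-34, and per kilobase of transcript it was the most highly expressed of the 47 genes (231 CPM per kb with DMSO, against 137 for MCM4, 94 for PCNA and 4.10 for POLE2, the lowest). Treated libraries lay far below DMSO and overlapped between the compounds. Against DMSO it changed by −0.55 under CCF642 (SE 0.037, limma adjusted p = 8.21e-18) and −0.60 under CCF642-34 (SE 0.037, adjusted p = 5.22e-19). Another annotated gene overlaps 20.2% of the exonic bases of RRM2. RRM1, the large subunit, changed by −0.27 under CCF642 and −0.30 under CCF642-34. TYMS, thymidylate synthase, had 26.8 and 28.1 CPM in the DMSO libraries, 14.7 and 17.7 CPM with CCF642 and 17.99 and 19.1 CPM with CCF642-34. Treated libraries lay below DMSO without overlap, and it changed on the log2 scale by −0.60 under CCF642 (SE 0.1, limma adjusted p = 1.19e-06) and −0.46 under CCF642-34 (SE 0.1, adjusted p = 0.000134). Of its exonic bases, 46.6% overlap other annotated genes, mostly ENOSF1 on the opposite strand, whose reads could not be separated from it without strand.

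Chromatin assembly factor 1 deposits histones on newly copied DNA. CHAF1A, its large subunit, had 191 and 189 CPM in the DMSO libraries, 165 and 153 CPM with CCF642 and 142 and 134 CPM with CCF642-34. The 3 groups did not overlap, with CCF642-34 lowest, and it changed on the log2 scale by −0.12 under CCF642 (SE 0.049, limma adjusted p = 0.0283) and −0.37 under CCF642-34 (SE 0.049, adjusted p = 8.24e-09), the call with CCF642 being lost with DESeq2 and without either DMSO library or the second CCF642 library. CHAF1B, the middle subunit, had 70.1 and 73.7 CPM in the DMSO libraries, 48.7 and 52.7 CPM with CCF642 and 53.1 and 51.98 CPM with CCF642-34, and its treated libraries overlapped between compounds and lay below DMSO. On the log2 scale it changed by −0.36 under CCF642 (SE 0.066, limma adjusted p = 4.58e-06) and −0.36 under CCF642-34 (SE 0.066, adjusted p = 8.05e-06).

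**Figure D2:**
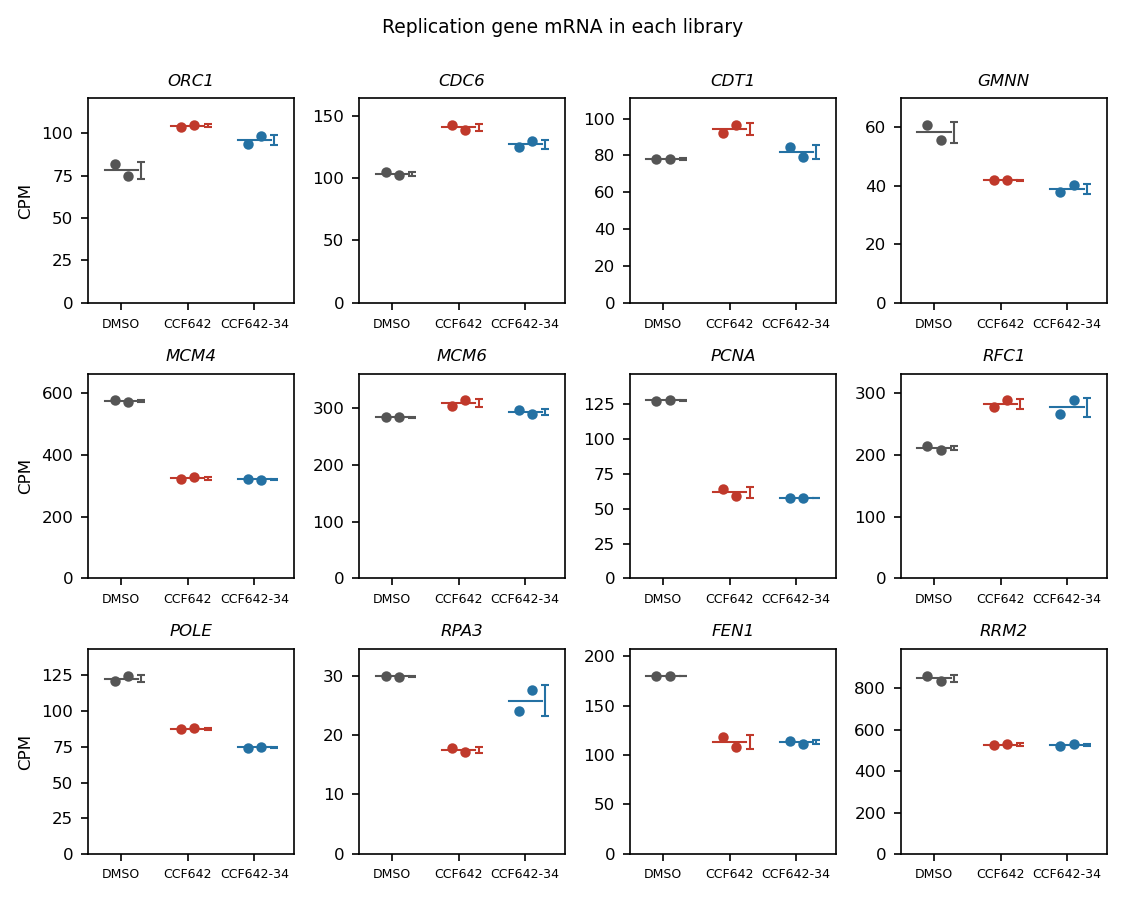
CPM of 12 replication genes in each library, with DMSO in grey, CCF642 in red and CCF642-34 in blue. Points are single libraries, lines are means and bars are ± SD (n = 2), and each axis starts at 0. The treated libraries of MCM4, PCNA, FEN1 and RRM2 lie well below DMSO, those of ORC1, CDC6 and RFC1 lie above it, and RPA3 is low with CCF642 alone.

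Subunits of one complex could also be compared with each other within a library, as the share that each holds of the reads of its complex, which does not depend on scaling between libraries. MCM6 held 12.6 and 12.6% of the MCM2-7 reads in the DMSO libraries, 19.8 and 20.3% with CCF642 and 19.2 and 18.9% with CCF642-34, a mean of 12.6% ± 0.041 against 20.03% ± 0.33 and 19.03% ± 0.21 (SD, n = 2). MCM4 held 25.6 and 25.4%, 20.9 and 21.2% and 20.9 and 20.9% in the same order. The groups of both genes were separate from DMSO, which does not set them apart from other subunits. In MCM2-7, RFC, ORC, RPA and GINS, the share of every subunit was separate from DMSO with CCF642-34. With CCF642, so were all shares except those of MCM7, ORC3, GINS2 and GINS3. MCM6 went from far fewer reads than MCM4 (a ratio of 0.493 and 0.495 with DMSO) to almost as many (0.947 and 0.958 with CCF642, 0.919 and 0.905 with CCF642-34). Within the clamp loader, RFC1 held 47 and 46.9% of the RFC1-5 reads with DMSO, 59.8 and 61.6% with CCF642 and 60.4 and 61.4% with CCF642-34, and RFC4 held 26.2 and 26.6%, 18.5 and 16.4% and 16.5 and 15.5%. Within ORC, the share of ORC1 was 26.5 and 25.5% with DMSO, 31.5 and 31.7% with CCF642 and 29.9 and 30.3% with CCF642-34, and that of ORC6 was 17.4 and 17.8%, 16.6 and 15.6% and 14.2 and 13.1%. A share is relative to the other subunits, so its direction can differ from the call against DMSO. ORC4, called higher with both compounds, held a mean of 10.96% with DMSO, 10.4% with CCF642 and 11.5% with CCF642-34. For ORC3, also called higher, the means were 16.9%, 17.3% and 18.8%, and its CCF642 libraries overlapped DMSO. MCM5, called lower with both, held 11.9%, 14.2% and 14.9% of MCM2-7. Shares within RPA and GINS are not printed. The summed reads of ORC1, CDC6 and CDT1 were 11.7 and 11.3% of those of MCM2-7 with DMSO, 22.1 and 22.0% with CCF642 and 19.6 and 20.0% with CCF642-34. This sum holds only genes that rose with both compounds and leaves out the other ORC subunits. The ratios of CDT1 to GMNN, RFC1 to PCNA and MCM6 to MCM4 likewise set a gene that rose against one that fell. None of these ratios was part of the design, and their changes follow in part from that choice of genes. In all, the 47 genes took 0.669 and 0.664% of the reads with DMSO, 0.498 and 0.500% with CCF642 and 0.491 and 0.496% with CCF642-34. With 2 libraries against 2, an exact permutation test, two-sided, cannot give a p under 0.333, so these shares are given without a call.

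**Figure D3:**
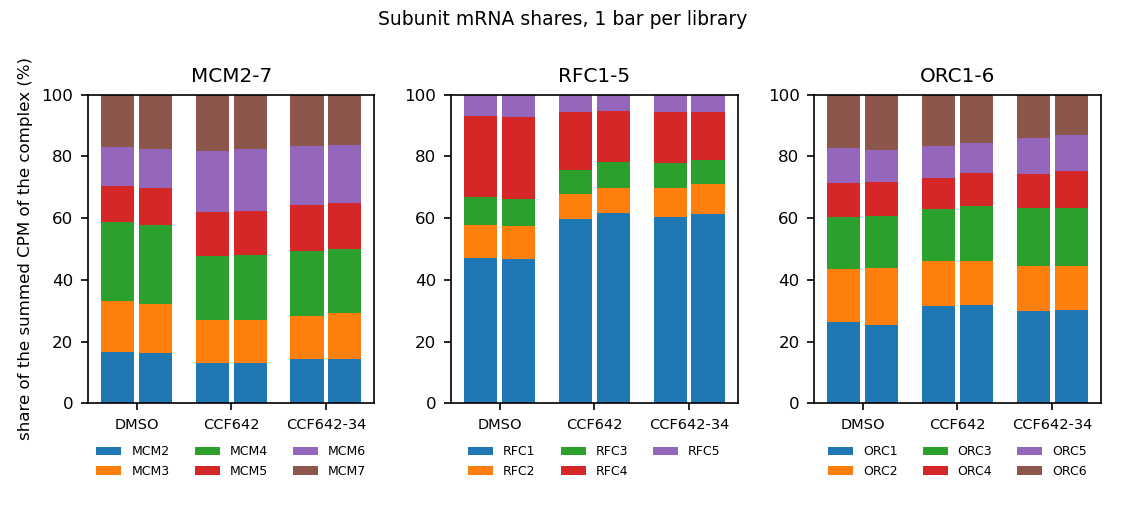
Share of the summed CPM of MCM2-7, RFC1-5 and ORC1-6 held by each subunit, with 1 stacked bar per library (2 per group), in percent. MCM6 goes from a mean of 12.6% with DMSO to 20.03% with CCF642 and 19.03% with CCF642-34, and RFC1 from 46.95% to 60.7% and 60.9%.

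To find where the compounds differed at the matched dose and time, CCF642-34 was compared directly with CCF642, the only pair tested. Of the 47 genes, 12 (25.5%) were lower with CCF642-34, where 17.4% of all genes were, and 2 (4.26%) were higher, where 15.9% of all genes were. None differed by 1.5-fold in either direction, beside 2.02% of all genes lower and 0.471% higher, or by 2-fold with an unadjusted p under 0.05, beside 0.299% lower and 0.00905% higher. RPA3 differed most, with a log2 difference of 0.49 (95% interval 0.31 to 0.68, limma adjusted p = 3.8e-05), higher under CCF642-34. POLD2 was the other gene that was higher, by 0.16 (95% interval 0.06 to 0.26, limma adjusted p = 0.00874). ORC6 was lower with CCF642-34 by −0.33 (95% interval −0.47 to −0.19, limma adjusted p = 0.000167), MCM10 by −0.32 (95% interval −0.47 to −0.17, limma adjusted p = 0.000769) and POLE by −0.27 (95% interval −0.38 to −0.16, limma adjusted p = 9.86e-05). Of the ORC and licensing genes higher than DMSO with both compounds, ORC1 was lower with CCF642-34 by −0.16 (95% interval −0.28 to −0.05, limma adjusted p = 0.0216), CDC6 by −0.19 (95% interval −0.29 to −0.09, limma adjusted p = 0.00292) and CDT1 by −0.25 (95% interval −0.37 to −0.13, limma adjusted p = 0.000577), while no difference was called for ORC3 (0.03, 95% interval −0.10 to 0.16) or ORC4 (0.05, 95% interval −0.11 to 0.21). GINS4 differed by −0.25 (95% interval −0.42 to −0.09, limma adjusted p = 0.015) and CHAF1A by −0.25 (95% interval −0.35 to −0.15, limma adjusted p = 7.19e-05). The remaining 4 calls, all lower with CCF642-34, were MCM6 (−0.12), MCM7 (−0.17), POLD3 (−0.20) and RFC4 (−0.20). The call of ORC1 was lost on scaling by library size, without the second CCF642 library and without the first CCF642-34 library, and that of MCM6 in these settings and in 4 others. Leaving out 1 library also ended the calls of RFC4 (the first CCF642 library), CDC6 (the first CCF642-34 library), POLD2 (either of the second CCF642 and first CCF642-34 libraries), and GINS4 and POLD3 (the second library of either compound).

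For 33 genes no difference between the compounds was called, which does not show that they acted alike. Some of the 33 were called in other settings. MCM2, RFC2 and RPA1 were called on scaling by library size alone, POLA2 and PCNA with DESeq2 size factors, and POLA2 with a mean of at least 5 CPM. The 95% interval of the difference was −0.02 to 0.15 for MCM2, −0.04 to 0.13 for MCM3, −0.14 to 0.02 for MCM4 and −0.13 to 0.02 for RRM2, all on the log2 scale. For PCNA, whose interval was −0.26 to −0.02, the estimate of −0.14 had an adjusted p of 0.0551, and POLA2 (−0.15) had 0.0501, both by limma. The widest interval was that of POLE2 (−0.31 to 0.33), the gene with the fewest reads. The median difference over the 47 genes was −0.051, beside 0.0093 over all genes.

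**Figure D4:**
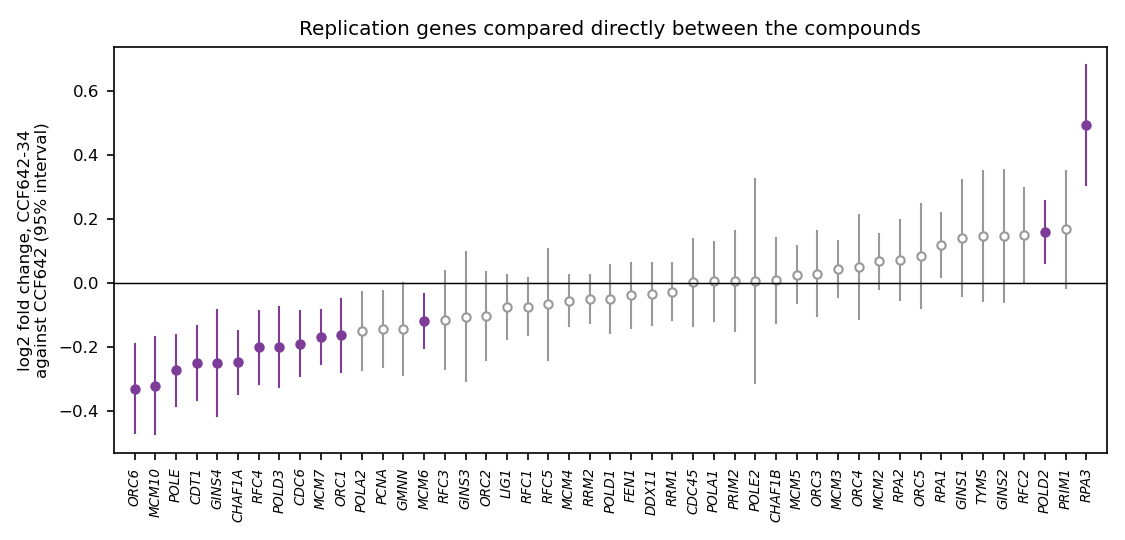
Log2 fold change of each of the 47 replication genes with CCF642-34 against CCF642, in order, with 95% intervals from limma (2 libraries per group). Filled purple points have an adjusted p under 0.05, 12 below 0 and 2 above it, the farthest right being RPA3, and the intervals of most open grey points span 0. The calls of ORC1 and MCM6 are lost when libraries are scaled by size alone, and calls of MCM2, RFC2 and RPA1 are gained.

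Other genes of the pathway were taken from 5 lists, 88 genes in all, of which 86 were listed (NME2 and CDKN2C were not). With CCF642-34, 61 of the 86 were lower and 8 higher, and with CCF642, 58 were lower and 10 higher. Of all genes, 27.9% were lower and 29.7% higher with CCF642-34, and 31.3% lower and 31.8% higher with CCF642. These shares also stand beside the counts of each list below. Of 30 genes for origin firing and the fork, 25 fell and 1 rose with CCF642-34, and 22 fell and 0 rose with CCF642. TOP2A, the topoisomerase that unlinks copied chromosomes, had 621 and 597 CPM in the DMSO libraries, 191 and 213 CPM with CCF642 and 261 and 271 CPM with CCF642-34, log2 changes of −1.46 under CCF642 and −1.10 under CCF642-34. TICRR, which helps to load CDC45, changed by −0.83 under CCF642 and −1.03 under CCF642-34, DSCC1, part of an alternative clamp loader, by −0.87 under CCF642 and −0.77 under CCF642-34, and POLD4, a small polymerase δ subunit, was the gene that rose with CCF642-34 (0.25, adjusted p = 0.00556, limma). Of the 13 listed genes of nucleotide metabolism, 6 fell and 0 rose with CCF642-34, and 9 fell and 1 rose with CCF642. The most marked falls in it were those of DCK, which phosphorylates salvaged deoxynucleosides (−1.27 under CCF642 and −0.95 under CCF642-34), and of SAMHD1, which degrades deoxynucleotides (−1.04 under CCF642 and −0.70 under CCF642-34). The 1 that rose, TK1, thymidine kinase, changed by 0.15 with CCF642 (limma adjusted p = 0.00807).

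Of 9 genes for chromatin behind the fork, 7 fell and 1 rose with CCF642-34, and 8 fell and 1 rose with CCF642. UHRF1, which recruits the maintenance DNA methyltransferase, had 136 and 145 CPM in the DMSO libraries, 45.8 and 48.3 CPM with CCF642 and 49.5 and 46.9 CPM with CCF642-34 and changed by −1.43 under CCF642 and −1.43 under CCF642-34. The paralogous histone chaperones ASF1A and ASF1B moved apart. ASF1A had 95 and 95.3 CPM in the DMSO libraries, 169 and 169.8 CPM with CCF642 and 175 and 179 CPM with CCF642-34, log2 changes of 0.96 under CCF642 (SE 0.048, limma adjusted p = 1.17e-22) and 0.98 under CCF642-34 (SE 0.048, adjusted p = 1.06e-22). ASF1B, the paralogue more tied to proliferating cells, had 87.2 and 92.4 CPM in the DMSO libraries, 46.8 and 41.4 CPM with CCF642 and 53.6 and 48.3 CPM with CCF642-34, with −0.88 under CCF642 and −0.72 under CCF642-34. NASP, another histone chaperone, changed by −0.53 under CCF642 and −0.82 under CCF642-34. Of 10 checkpoint genes, 8 fell and 1 rose with CCF642-34, and 6 fell and 1 rose with CCF642. WEE1, the kinase that restrains CDK activity, changed by −0.70 under CCF642 and −0.96 under CCF642-34, CDC25A, the phosphatase that opposes it, by −0.57 under CCF642 and −0.81 under CCF642-34, and HUS1, a part of the checkpoint clamp and the gene that rose, by 0.18 under CCF642 and 0.32 under CCF642-34.

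The genes that control entry into S phase held the largest changes of these lists. Of 24 listed genes, 15 fell and 5 rose with CCF642-34, and 13 fell and 7 rose with CCF642. In number, the increases of this list did not exceed the shares of all genes called higher (29.7% with CCF642-34 and 31.8% with CCF642). CDKN1A, which encodes the CDK inhibitor p21, had 20.8 and 19.6 CPM in the DMSO libraries, 135 and 123 CPM with CCF642 and 118 and 113 CPM with CCF642-34, log2 changes of 2.74 under CCF642 (SE 0.063, limma adjusted p = 1.13e-36) and 2.54 under CCF642-34 (SE 0.063, adjusted p = 5.13e-35). CCNE1, cyclin E1, the CDK2 partner of late G1, had 33.9 and 35.4 CPM in the DMSO libraries, 11.6 and 8.50 CPM with CCF642 and 9.31 and 8.53 CPM with CCF642-34, log2 changes of −1.58 under CCF642 (SE 0.12, limma adjusted p = 2.2e-16) and −1.76 under CCF642-34 (SE 0.12, adjusted p = 7.37e-18). Treated and DMSO libraries of both genes lay far apart. SKP2, which targets p27 for degradation, changed by −1.25 under CCF642 and −1.14 under CCF642-34, and E2F8, a repressive E2F factor, by −1.08 under CCF642 and −1.33 under CCF642-34. E2F6, another repressive member, was higher (0.54 under CCF642 and 0.72 under CCF642-34), as was FBXW7, which targets cyclin E (0.70 under CCF642 and 0.37 under CCF642-34). Whether any of these changes had a part in those of the replication genes was not tested.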

How the data were processed

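Polyadenylated RNA of MM1.S cells was sequenced in 6 libraries. The authors deposited CPM values for 11048 gene symbols, and per the labels their processing used STAR, edgeR 3.24.3 and limma 3.38.3 with hg19. Whether reads were counted by strand is not given in the sources used here. Read counts were recovered as whole multiples of the smallest step (100% of values, within 0.01 read) and used for alternatives only. CPM were scaled with TMM (edgeR 4.0.16), increased by 1, converted to log2 and fitted over all genes and 3 groups with limma 3.58.1 (R 4.3.3, trend, 3 residual and 42.9 prior degrees of freedom, two-sided). The design had named edgeR for counts and limma for CPM, so limma was used. The members, the gene lists and the rule for values printed in full were chosen with earlier results of these data known. That rule took the largest change of each role, members at least 1.2-fold higher and the 6 largest differences between compounds, and MCM6, TOP2A and the other genes of the 5 lists that are given in full were added after their values were seen. Of each list, the 2 largest changes in each direction could be named. Overlap and shared 50-base stretches came from GENCODE release 29 on GRCh38, and promoters from RefSeq on GRCh38.p14. The stretches were those of the longest coding transcript of each gene, and genes that overlap it by position were left out. Alternatives were other scalings, pseudocounts of 0.25 and 4, a mean of at least 5 CPM, fits of only 2 groups, a replicate block, edgeR's and DESeq2's (1.42.0) tests, limma-voom and leaving out each library. The fit was tested on simulated data. A table of the whole series was read for its gene symbols, which matched those of the libraries, and its values were not used.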

Additional observations from a re-analysis of the deposited data

How the results depend on the processing

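The 29 genes lower with each compound stayed within 1.5 times that number under all 16 alternatives. Scaling by library size alone left 4 replication genes higher with CCF642-34 against DMSO, median log2 fold changes of −0.38 with CCF642-34 and −0.42 with CCF642, 13 genes at least 1.5-fold lower and 1 at least 2-fold lower with CCF642, and, between the compounds, 5 genes higher and a median of −0.0069. When 1 library was left out, the number higher with CCF642-34 ranged from 4 (without the second DMSO library) to 8, the number higher with CCF642-34 than with CCF642 from 1 (without its first library) to 3, and the number at least 1.5-fold higher with CCF642 from 0 to 2 (without the first DMSO library). Leaving out the second DMSO library kept 27 of the 37 calls with CCF642-34, losing ORC4, ORC5, ORC6, CDT1, MCM5, MCM6, GINS2, POLD2, POLE2 and RFC5, and leaving out the second CCF642 library kept 9 of the 14 calls between the compounds. Leaving out 1 library also added calls, against DMSO for POLD1 with CCF642-34 and for ORC5, ORC6 and RPA2 with CCF642. Between the compounds, calls of PRIM1, PCNA and TYMS were added without the second CCF642 library. The causes were not tested. A replicate block kept all 37, 36 and 14 calls and added none. Samples of the same number did not deviate together (correlations of −0.047, −0.077 and 0.111 over 9390 genes), so the numbers were not taken as pairs. No call changed direction in the alternatives run. With 2 libraries per group, the widest 95% interval reached 0.32 either side of its estimate, so smaller differences may be missed.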

Other observations

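In the promoter windows, the E-box letters CACGTG, the sequence that MYC and related factors bind, were in 6 of the 41 matched promoters of replication genes (14.6%), against 7.43% of all promoters and 10.4% of promoters of listed genes. The 6 were those of GMNN, MCM2, MCM7, RPA1, FEN1 and CHAF1A, all among the 23 matched promoters of genes lower with both compounds (26.1%). None of the 7 promoters of genes higher with both and none of the 11 others held them. With so few promoters, the absence of the letters from these 2 sets cannot be told from the 10.4% of listed genes. The letters of the cell cycle homology region (TTTGAA or TTCGAA), which marks many genes of G2 phase and mitosis, were in 2 of the 41 promoters (4.88%: MCM6 and RRM1), against 16.6% of all promoters and 11.2% of promoters of listed genes. These shares were given no test.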
